A study of Mus musculus with 6 samples.

Results

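The 80 genes described here encode the proteins of the cytoplasmic ribosome, 48 of the large subunit and 32 of the small subunit. They were taken from the 55416 genes of the count table by symbol, as protein-coding genes named Rpl or Rps with a number, Rplp0 to Rplp2 or Rpsa, without the Rps6 kinases. A minimum of 10 counts in at least 2 of the 6 libraries was then applied, which 80 of the 83 matching symbols passed, beside 16296 genes of all kinds. The rule used no difference between genotypes. The libraries come from coronary endothelial cells (ECs) of mouse hearts at E15.5, sorted from digested ventricles for membrane GFP. Both groups carry 1 allele of Pdgfb-CreERT2 (iCreERT2 in the study's methods), a tamoxifen-inducible Cre driven by an endothelial promoter, and 1 allele of the R26-mTmG reporter, which turns to GFP where Cre has acted, and the dams of both received tamoxifen by gavage at 75 mg/kg between E11.5 and E13.5. They differ in Wt1, a zinc finger transcription factor: the 3 ControlΔEC libraries are Wt1 +/+ and the 3 Wt1KOΔEC libraries are Wt1 loxP/loxP. The sort keeps any ventricular cell in which this Cre recombined, so GFP marks recombination at the reporter, not the loss of Wt1 in each cell. The comparison asks how the loss of Wt1 changed the messages for the ribosome in these cells.

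A ribosome is built from ribosomal RNA and 1 copy of nearly every ribosomal protein, so cells make these proteins in matched amounts and degrade those that find no partner. Their genes are active in every cell type, and their short messages are among the most abundant. Most begin with a 5′ terminal oligopyrimidine (TOP) tract, a cytosine at the cap followed by a run of pyrimidines, through which mTOR signalling and the RNA-binding protein LARP1 set how much they are translated. A few members have paralogs with restricted expression, such as Rpl3l in striated muscle and Rpl10l and Rpl39l in the testis.

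Start sites of 7 members are shown, because the TOP tract is the element these genes are known to share and the 7 include members with high and low differences between the genotypes, reported further on. The sequences are RefSeq's on GRCm38.p6 and run 5′ to 3′ on the gene's strand, with 10 bases before the annotated transcript start and 20 from it on. Capitals mark the cytosine nearest to that start that at least 4 pyrimidines follow, with the pyrimidines after it; pyrimidines may also precede it. In the first 5 the marked cytosine is the annotated start base, in Rps24 it lies 1 base before it and in Rps2 4 bases after it.
Rps27, chr3:90213629-90213658, minus strand: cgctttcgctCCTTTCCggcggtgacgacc
Rplp2, chr7:141447641-141447670, plus strand: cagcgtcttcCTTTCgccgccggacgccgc
Rps6, chr4:86857348-86857377, minus strand: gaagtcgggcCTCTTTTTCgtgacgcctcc
Rpl38, chr11:114668570-114668599, plus strand: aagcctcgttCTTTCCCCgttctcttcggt
Rpl35, chr2:39005112-39005141, minus strand: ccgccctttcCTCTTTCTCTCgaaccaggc
Rps24, chr14:24490668-24490697, plus strand: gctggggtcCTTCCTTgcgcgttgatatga
Rps2, chr17:24720053-24720082, plus strand: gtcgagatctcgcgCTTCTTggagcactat
Of the 60 members with a promoter window in the table, 29 (48.3%) had such a cytosine within 5 bases of an annotated start, against 21.5% of 17492 protein-coding genes with a window. With the cytosine required to be the start base itself, the count was 13 members (21.7%) against 2.67% of coding genes. It was found in 17 of 36 large subunit and 12 of 24 small subunit genes with a window, so the subunits held it at similar shares. Other motifs were searched over 300 bases, from 250 before to 50 after the start, on both strands. CCGGAAG, the core of the sites of ETS factors, was in 25 members (41.7%) against 12.9% of coding genes. TATAAA was in 7 members (11.7%) against 14.8%, AAGATGGCG, a motif of YY1, in 4 (6.67%) against 2.14%, and GCGTGGGNG, a motif that WT1 and EGR factors can bind, in 3 (5%) against 2.78%. A letter match is no evidence of binding, and a window without one says nothing of the factor.

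In the cells as a whole, Wt1 fell from 145, 110 and 149 CPM (counts scaled to libraries of equal size after TMM normalization) in the ControlΔEC libraries to 14.0, 18.4 and 21.3 CPM in Wt1KOΔEC, a log2 fold change of -2.91 with an adjusted p of 0.00319 by edgeR's quasi-likelihood test. Here and below values are given for replicates 1, 2 and 3 of each genotype in that order. The libraries held 26037324 to 44779020 counts and the 10 endothelial markers summed to 5431–6868 CPM in ControlΔEC and 5814–6588 CPM in Wt1KOΔEC. Erythroid markers were as abundant: the 7 genes summed to 6917, 11173 and 5194 CPM in ControlΔEC and 6058, 3644 and 6192 CPM in Wt1KOΔEC, above the endothelial sum in 3 libraries and highest in replicate 2 of ControlΔEC. Several library measures moved with genotype. Rn18s, the 18S ribosomal RNA, took 14.2 ± 1.04% of counts (mean ± SD, n = 3) in ControlΔEC and 23.5 ± 2.75% in Wt1KOΔEC, and mitochondrially encoded genes took 6.08 ± 0.755% and 3.01 ± 1.46%. The 10 genes of the dissociation response summed to 2131–2684 and 3213–4196 CPM, with 8 of 10 higher in every Wt1KOΔEC library. Of the 8 fibroblast markers 5 were higher without overlap (679–982 and 1347–1554 CPM summed), and of the 5 endocardial markers 2 were (272–363 and 597–713 CPM). Of the 7 mural markers 4 were lower without overlap (178–366 and at most 155 CPM), as were 2 of the 7 macrophage markers (253–781 and 188–271 CPM, with replicate 2 of ControlΔEC highest). Of the 7 epicardial markers 4 were higher without overlap, and without Wt1 they summed to at most 17.9 CPM in ControlΔEC and 17.3–49.3 CPM in Wt1KOΔEC. Over all genes tested, 10.3% were higher and 8.97% lower without overlap. No list had a marker at 0 in every library. The library identifiers also run in separate series for the genotypes, so a batch that followed them cannot be told apart from genotype. The part of these measures in the results below was not tested, beyond the fits named there.

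Messages of the ribosomal protein genes made up more of the Wt1KOΔEC libraries. The 80 genes took 2.56%, 2.36% and 2.51% of all counts in ControlΔEC and 3.38%, 2.97% and 3.06% in Wt1KOΔEC, or 2.48 ± 0.105% and 3.13 ± 0.214% (mean ± SD, n = 3 each), a ratio of 1.27. Every Wt1KOΔEC library was above every ControlΔEC library, with replicate 1 of Wt1KOΔEC the highest of the 6. The ratio was 1.37 when Rn18s and the mitochondrial genes were left out of the total, and 1.40 on protein-coding counts alone. Since bulk libraries give shares, more of these messages per cell cannot be told apart from less of the other RNA.

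**Figure D1:**
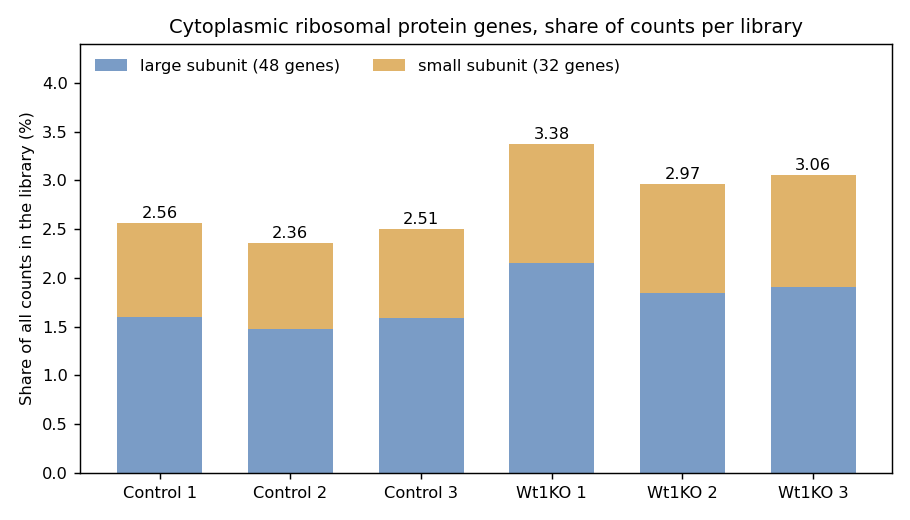
Share of all counts in each library (%, vertical axis) taken by large subunit (blue) and small subunit (yellow) ribosomal protein genes, with the sum above each bar. The 3 Wt1KOΔEC bars stand between 2.97% and 3.38% and the 3 ControlΔEC bars between 2.36% and 2.56%, with the colours divided alike in all 6.

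Both subunits shared in that difference. The large subunit genes took 1.55 ± 0.0712% of counts in ControlΔEC and 1.97 ± 0.164% in Wt1KOΔEC, and the small subunit genes 0.922 ± 0.0392% and 1.17 ± 0.0499%. The ratio of large to small subunit counts was 1.66, 1.66 and 1.74 in ControlΔEC and 1.76, 1.63 and 1.66 in Wt1KOΔEC, so the genotypes overlapped and their means were 1.69 and 1.68.

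Gene by gene, all 80 members had a log2 fold change above 0 with edgeR after TMM normalization, where 48% of all genes tested did; with library size alone as the scale 78 did, Rps24 and Rpl35 turning to -0.13 and -0.019. The median over the members was 0.49 (quartiles 0.41 and 0.63), a fold of 1.40, against -0.03 over all genes tested. Under library size alone the median of all genes moved to -0.18 and that of the members to 0.34, so their distance was 0.52 on both scales. The members were higher in all 3 Wt1KOΔEC libraries than in any ControlΔEC library for 67 of 80 genes, against 10.3% of all genes tested, and none was lower in all 3, against 8.97%.

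Single genes rarely passed the test. A call needed a Benjamini-Hochberg adjusted p under 0.05 and a log2 fold change past 0.58 in either direction, and edgeR's quasi-likelihood test called 1 member higher, Rps29, against 0.0491% of all genes tested, and no member lower, against 0.0245%. An unadjusted p under 0.05 with a higher level was reached by 61 members, against 5.96% of all genes tested, and with a lower level by none, against 7.12%. DESeq2 at its default settings called 27 members higher, against 2.2% of the genes it tested, and none lower, against 2.63%; without a limit on the fold it had 38 higher, against 2.58%. Those 27 all lay among the 61 and all showed no overlap between genotypes. An edgeR adjusted p between 0.05 and 0.25 was reached by 33 members, 26 of them among the 27. Leaving out replicate 1 of Wt1KOΔEC brought the 61 down to 32, the lowest count among the 6 fits that each left out 1 library.

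**Figure D2:**
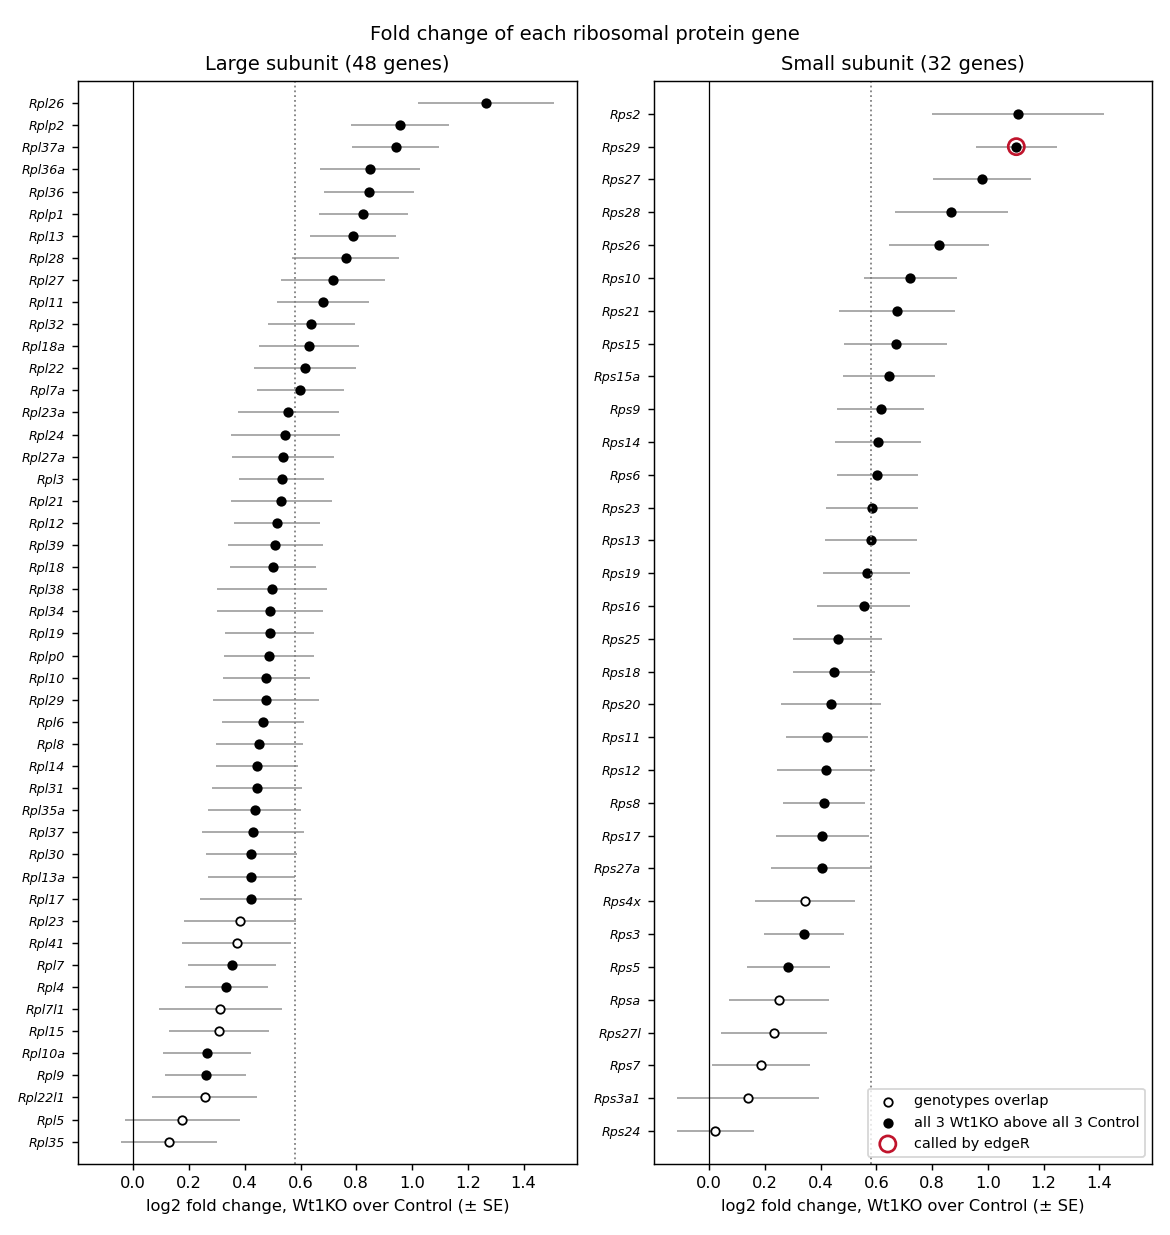
Log2 fold change of each of the 80 ribosomal protein genes, Wt1KOΔEC over ControlΔEC (horizontal axis, points), with its standard error (bars), sorted within the large (left) and small (right) subunit; filled points had all 3 Wt1KOΔEC libraries above all 3 ControlΔEC libraries, the dotted line marks 0.58 and the red ring the 1 gene called by edgeR. All points lie right of 0 and 67 are filled.

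The medians of the subunits were 0.49 for the large and 0.51 for the small, which differ by less than the spread of either list (quartiles 0.42 to 0.62 and 0.39 to 0.65). Without overlap were 41 of 48 large and 26 of 32 small subunit genes, against 10.3% of all genes tested. An unadjusted p under 0.05 was reached by 37 and 24, against 5.96%, and above 0.58 were 14 and 14, against 15.4% of all genes tested. Large minus small was -0.02, and it ranged from -0.04 to 0.03 when each library was left out in turn, so which subunit was ahead was not settled. No test was made between subunits, since genes are not replicates.

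Libraries of 1 genotype also differed from each other by a shift common to most members. As the median difference from the ControlΔEC mean on the log2 scale, ControlΔEC stood at 0.10, -0.15 and 0.05 and Wt1KOΔEC at 0.68, 0.40 and 0.45. Of the 80 members, 56 were lowest of all 6 libraries in replicate 2 of ControlΔEC, which also had the highest erythroid and macrophage sums, and 61 were highest in replicate 1 of Wt1KOΔEC. The latter also had the highest share of Rn18s, 26.5%, and the lowest of mitochondrial genes, 1.68%. Without it the median log2 fold change of the members was 0.43, and without replicate 2 of ControlΔEC 0.41, the lowest of the 6 fits.

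**Figure D3:**
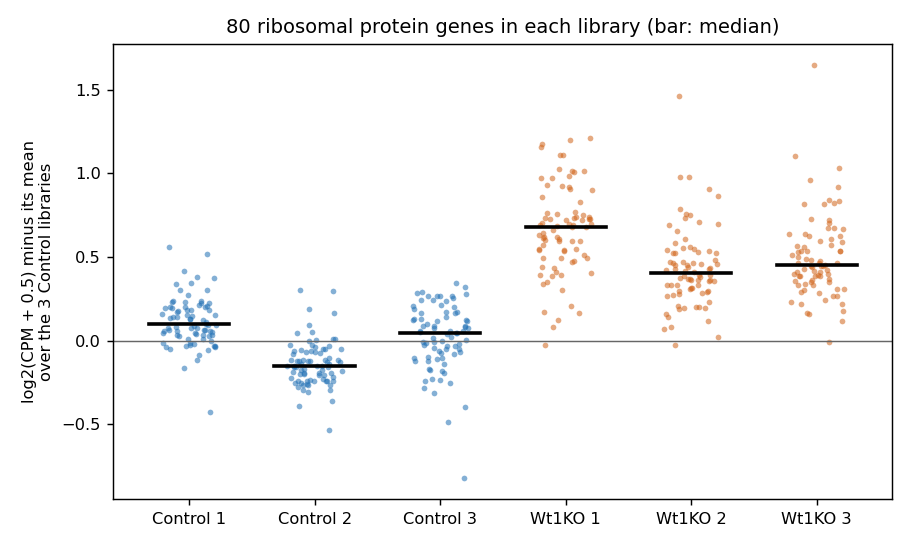
Each of the 80 ribosomal protein genes (points) in each library, as log2 of CPM + 0.5 minus the mean of that value over the 3 ControlΔEC libraries (vertical axis); black bars are medians. The medians of the Wt1KOΔEC libraries lie at 0.40 to 0.68 and those of ControlΔEC at -0.15 to 0.10.

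Rps29 is a small zinc-binding protein of the head of the small subunit, and its gene lies on the minus strand of chromosome 12 (chr12:69204495-69205960, GRCm39). It stood at 80.7, 77.6 and 75.1 CPM in ControlΔEC and at 179, 154 and 168 CPM in Wt1KOΔEC. The groups did not overlap and lay far apart, with a log2 fold change of 1.10 ± 0.145 (SE) and an adjusted p of 0.0445 by edgeR. DESeq2 called it too, with an adjusted p of 1.29e-12. The call by edgeR was not stable. Over the 6 fits that each left out 1 library the log2 fold change ranged from 1.05 to 1.16 and the adjusted p from 0.0506 to 0.294, and with an offset for transcript length and GC content they were 0.79 and 0.187.

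Another 7 members stood highest by log2 fold change but did not pass edgeR's adjusted test, with adjusted p from 0.108 to 0.22. Rpl26, a large subunit protein near the exit of the peptide tunnel that is also known to bind p53 mRNA, stood at 48.9, 81.2 and 72.4 CPM in ControlΔEC and 148, 130 and 208 CPM in Wt1KOΔEC. Its log2 fold change was the highest of the members, 1.27 ± 0.243, with groups that did not overlap although each library set differed widely within itself. Rps27, a zinc-binding small subunit protein, stood at 48.7, 43.3 and 35.1 and at 85.1, 79.1 and 86.3 CPM, with a log2 fold change of 0.98 ± 0.175. The 6 libraries split cleanly for it.

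Rpl37a, a zinc-binding large subunit protein, stood at 64.1, 62.3 and 69.1 CPM in ControlΔEC and 141, 111 and 124 CPM in Wt1KOΔEC (log2 fold change 0.94 ± 0.157). Its Wt1KOΔEC libraries spread more than its ControlΔEC libraries but all lay above them. Rps28, near the mRNA exit of the small subunit, stood at 45.3, 43.2 and 29.1 and at 75.9, 70.4 and 68.5 CPM (0.87 ± 0.203), with replicate 3 of ControlΔEC low. Rpl36a, on the X chromosome, stood at 74.0, 61.5 and 89.2 and at 150, 124 and 131 CPM (0.85 ± 0.180). All 3 genes had no overlap between genotypes, and DESeq2 called each of them, as it did Rpl26 and Rps27.

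Rps2, which sits at the mRNA entry channel of the small subunit, had the largest spread within a genotype on the log2 scale (SD 0.721 in ControlΔEC). It stood at 690, 595 and 272 CPM in ControlΔEC and 1088, 1330 and 938 CPM in Wt1KOΔEC, with a log2 fold change of 1.11 ± 0.310. Replicate 3 of ControlΔEC was far below the other two, and without it the log2 fold change was 0.80. Pseudogenes named after Rps2 held 41.4% of the counts of gene and pseudogenes together, and with their counts added to the gene the log2 fold change was 0.63. How reads were divided between this gene and its copies was not tested, and its size is uncertain.

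At the other end stood the 4 members with the lowest log2 fold changes, each smaller than its SE. Rps24, one of the genes mutated in Diamond-Blackfan anaemia, a failure of red cell production, on the plus strand of chromosome 14 (chr14:24537193-24547028, GRCm39), stood at 250, 246 and 269 CPM in ControlΔEC and at 250, 250 and 276 CPM in Wt1KOΔEC (log2 fold change 0.02 ± 0.139, adjusted p 0.975 by edgeR). Its libraries overlapped throughout, and its replicates lay closer together than those of most members, with an SD on the log2 scale of 0.0685 and 0.0834 beside medians of 0.202 and 0.151. Rpl35, at the exit of the peptide tunnel, stood at 122, 105 and 152 and at 136, 132 and 145 CPM (0.13 ± 0.172). Rps3a1 stood at 373, 174 and 247 and at 319, 256 and 299 CPM (0.14 ± 0.256), with replicates 1 and 2 of ControlΔEC on either side of all the others. Rpl5 stood at 164, 96.0 and 128 and at 146, 133 and 160 CPM (0.18 ± 0.206). These 4 genes did not separate the genotypes, and leaving out 1 library moved Rpl5 between 0.0033 (without replicate 2 of ControlΔEC) and 0.38 (without replicate 1) and Rpl35 between 0.013 and 0.28.

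Rpl5 and Rpl11 join the 5S ribosomal RNA in a particle that enters the large subunit and that, when free, binds MDM2 and so stabilizes p53. Their values differed: Rpl11 stood at 178, 177 and 203 CPM in ControlΔEC and 353, 267 and 274 CPM in Wt1KOΔEC (0.68 ± 0.165, adjusted p 0.183 by edgeR), with no overlap. The difference between both genes was not tested. The stalk proteins, which recruit elongation factors to the large subunit, were higher without overlap in all 3 cases. Rplp0, the scaffold of the stalk, stood at 1806, 1406 and 1678 and at 2695, 2086 and 2074 CPM (0.49 ± 0.162). Rplp1 stood at 167, 139 and 151 and at 310, 257 and 243 CPM (0.83 ± 0.161), and Rplp2 at 78.0, 70.7 and 88.7 and at 183, 136 and 141 CPM (0.96 ± 0.176). Adjusted p was 0.266, 0.114 and 0.11 for the 3 genes in that order.

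Rps6, the substrate of the S6 kinases and a usual readout of mTOR activity at the protein level, stood at 661, 630 and 745 CPM in ControlΔEC and 1121, 928 and 1044 CPM in Wt1KOΔEC (0.60 ± 0.145, adjusted p 0.18 by edgeR). All Wt1KOΔEC libraries lay above all ControlΔEC libraries. Rps19, the gene most often mutated in that anaemia, stood at 354, 268 and 309 and at 478, 423 and 475 CPM (0.57 ± 0.157). Rpl38, which in the mouse embryo is known for its part in the translation of Hox messages, stood at 35.0, 25.5 and 29.6 and at 44.6, 43.6 and 39.1 CPM (0.50 ± 0.198). Neither overlapped between genotypes. Rpsa, the small subunit protein also described as a laminin receptor, stood at 1031, 842 and 674 and at 1132, 960 and 938 CPM (0.25 ± 0.181), and Rpl41, the shortest of the ribosomal proteins, at 442, 293 and 281 and at 468, 418 and 428 CPM (0.37 ± 0.195). For both, replicate 1 of ControlΔEC reached into the range of Wt1KOΔEC, and without that library their log2 fold changes were 0.42 and 0.61.

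Levels can be compared between members only per length. In CPM per kb of the median annotated transcript, the ControlΔEC means were highest for Rplp0 (1284), followed by Rpl13 (892), Rpl4 (882), Rpl10 (857) and Rps4x (821), and in Wt1KOΔEC the same genes stood at 1800, 1540, 1111, 1194 and 1043. Annotated transcripts of some members are long, and per kb of coding sequence Rpl41 led at 4513, ahead of Rplp0 at 1714, so the order depends on which length is taken. Among the 5 leading genes Rpl13 had the largest log2 fold change, 0.79 ± 0.155 (771, 716 and 656 against 1440, 1124 and 1137 CPM), and Rpl4, whose loop lines the peptide tunnel, and the X-linked Rps4x had values of 0.33 ± 0.149 and 0.35 ± 0.179.

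With all 6 libraries, each of the 4 broadly expressed paralogs had a smaller log2 fold change than its parent. For Rpl7l1 the order did not hold in every fit without 1 library. Without replicate 1 of ControlΔEC Rpl7l1 reached 0.47, while its parent Rpl7 reached at most 0.43 in any such fit. Without replicate 1 of Wt1KOΔEC the values were 0.34 for Rpl7l1 and 0.25 for Rpl7. The difference in each pair was tested on the share that the paralog held of the counts of both. Rps27l, a p53-responsive paralog of Rps27, stood at 40.3, 34.5 and 31.0 CPM in ControlΔEC and 37.2, 44.3 and 43.0 CPM in Wt1KOΔEC (0.23 ± 0.192), where Rps27 had 0.98. Of the counts of this pair Rps27l held 45.3%, 44.4% and 46.9% in ControlΔEC and 30.4%, 35.9% and 33.2% in Wt1KOΔEC. Its share was lower in 3 of 3 Wt1KOΔEC libraries, by 12.3 percentage points between the means of 45.5 ± 1.29% and 33.2 ± 2.73% (SD, n = 3 each; two-sided exact permutation p = 0.1, 0.2 adjusted over 4 pairs). With 3 libraries against 3 this test cannot go below 0.1.

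Rpl36al, an autosomal copy of the X-linked Rpl36a that the naming rule left out, held 48.7 ± 0.647% of its pair in ControlΔEC and 44.2 ± 1.80% in Wt1KOΔEC (exact permutation p = 0.1, adjusted 0.2, n = 3 each). Both genes of that pair were higher without overlap, with log2 fold changes of 0.59 and 0.85. Rpl22l1, which in mice rises when Rpl22 is lost, stood at 68.6, 69.0 and 96.0 CPM in ControlΔEC and 86.8, 85.8 and 106 CPM in Wt1KOΔEC (0.26 ± 0.188), and Rpl22 stood at 67.4, 59.7 and 67.5 and at 118, 79.0 and 101 CPM (0.62 ± 0.183). The share of Rpl22l1 in that pair was 54.2 ± 4.18% and 48.5 ± 5.38% (exact permutation p = 0.3, adjusted 0.4, n = 3 each), within the spread of the libraries. Rpl7l1 stood at 64.3, 59.5 and 37.0 and at 64.4, 64.1 and 71.3 CPM (0.31 ± 0.220), and held 6.57 ± 2.06% and 6.37 ± 0.842% of its pair with Rpl7, whose log2 fold change was 0.35 (exact permutation p = 0.9, adjusted 0.9, n = 3 each). Paralog and parent share sequence, and how RSEM divided their reads was not tested.

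**Figure D4:**
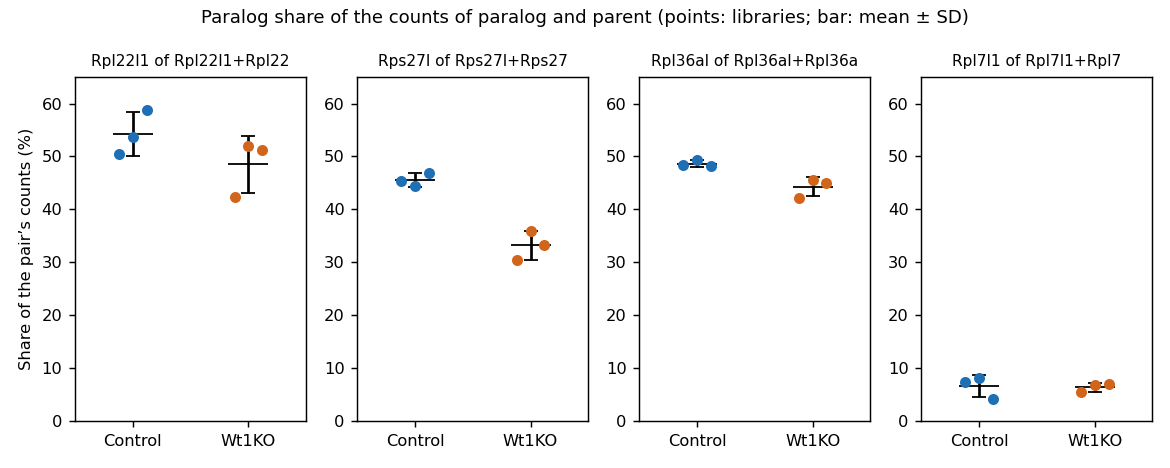
Share of the counts of a paralog and its parent taken by the paralog (%, vertical axis) in each library (points), with mean and SD (bars), for 4 pairs. For Rps27l and Rpl36al the 3 Wt1KOΔEC points lie below the 3 ControlΔEC points, at means of 33.2% against 45.5% and 44.2% against 48.7%.

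The paralogs known from muscle and testis were near or at 0. Rpl3l had 11 counts in replicate 2 of ControlΔEC and 0 in the other 5 libraries, Rpl39l had 5 counts in replicate 3 of ControlΔEC and 1 in replicate 3 of Wt1KOΔEC, and Rpl10l had 0 counts in all 6. A count of 0 allows up to 3 counts, or 0.0608 to 0.119 CPM in these libraries. Their parents Rpl3, Rpl39 and Rpl10 had log2 fold changes of 0.53, 0.51 and 0.48 and no overlap between genotypes.

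Ribosomal protein messages are short, and log2 fold change declined with length over the other genes. Among other protein-coding genes the median log2 fold change went from 0.32 for 67 genes with transcripts under 500 bases to -0.15 for 3553 genes over 4500 bases. The ribosomal protein genes were above them in each bin, from 0.76 for 6 genes under 500 bases to 0.42 for 7 genes of 1500 to 2000. The 94 other coding genes under 1000 bases that reached the members' 10th percentile of CPM had a median of 0.28, with 41 higher without overlap. An offset for transcript length and GC content in each library lowered the median of the members from 0.49 to 0.42, and with it 79 of 80 stayed above 0 (48.3% of all genes tested), 50 had no overlap (9.81%) and 43 an unadjusted p under 0.05 (5.45%), with none called. Rps24 then turned to -0.038. The offset moved 19 members by over 1.5 times, 18 of them down. Among the short genes named above, Rps28 went to 0.50, Rpl41 to 0.10, Rpl38 to 0.093 and Rps27l to 0.068.

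**Figure D5:**
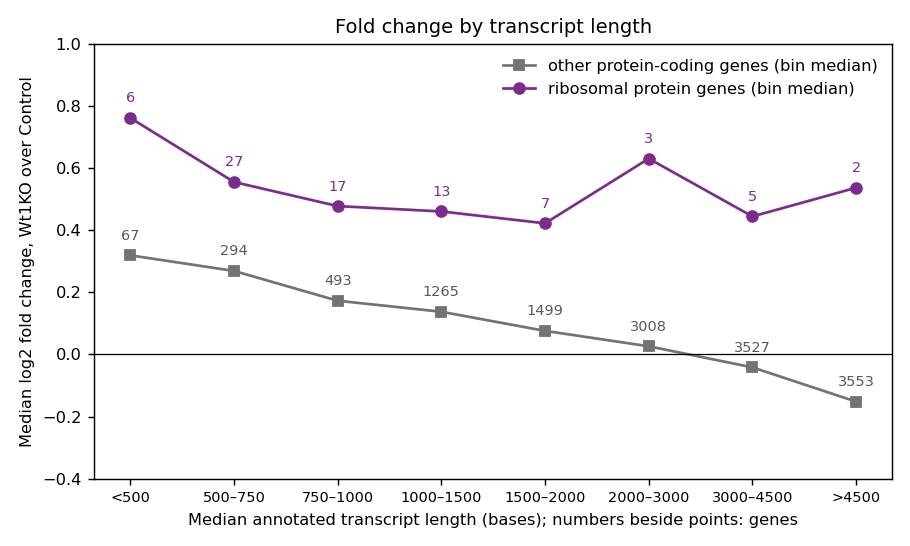
Median log2 fold change, Wt1KOΔEC over ControlΔEC (vertical axis), of ribosomal protein genes (purple) and other protein-coding genes (grey) in 8 bins of transcript length in bases (horizontal axis), with the number of genes beside each point. The grey medians decline from 0.32 to -0.15, and the purple medians lie between 0.42 and 0.76 in all bins, 3 of which hold 5 genes or fewer.

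Within the members, Spearman's rho across genes describes the order of the differences; the genes share libraries and are not independent. The log2 fold change had a rho of -0.33 with coding length, 0.33 with GC content and -0.31 with CPM in ControlΔEC (n = 80 genes), against -0.19, 0.10 and -0.08 in the other coding genes. CPM in ControlΔEC is also the base of the log2 fold change, which by itself can make that rho negative. The 29 members with a TOP-like start had a median of 0.51 and the 31 without one 0.47. The 13 with the exact start had 0.60 and the 47 without it 0.49. These medians lie close together beside the ranges, which ran from 0.02 to 1.11 and from 0.14 to 1.27 for the first split. For the exact start the ranges were 0.13 to 0.98 and 0.02 to 1.27: Rps27 and Rpl35, both with the cytosine at the start base, stood at 0.98 and 0.13. With the CCGGAAG motif the median was 0.49 (25 genes) and without it 0.52 (35 genes). The 28 members whose exons another gene overlaps by at least 10% of the transcript, which these unstranded reads cannot separate, had a median of 0.47 and the other 52 had 0.50. Adding the counts of the 312 pseudogenes named after a member gave a median of 0.48 and again 67 genes without overlap.

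Other genes of the translation machinery were described by list, and edgeR's adjusted test called none of them, against 0.0736% of all genes tested in either direction. With an unadjusted p under 0.05, 20 of the 118 listed genes were higher (16.9%, against 5.96% of all genes tested) and 3 lower (2.54%, against 7.12%). DESeq2 called 9. Higher were 3 ribosomal protein genes outside the naming rule, 4 ribosome biogenesis genes and 1 TOP or mTOR regulator, against 2.2% of all genes it tested. Lower was 1 TOP or mTOR regulator, against 2.63%. The 4 ribosomal protein genes outside the naming rule had a median log2 fold change of 0.60, and 3 were higher without overlap.

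Genes listed as sharing the TOP start with the members, translation factors among them, came next, though their starts were not examined. Of these 19 genes 18 were above 0 and 8 higher without overlap, against 10.3% of all genes tested and 41 of the 94 short coding genes described above, with a median of 0.27, for example Eef1d (0.55 ± 0.144) and Eef1g (0.50 ± 0.154), subunits of the elongation factor that loads tRNAs. Of 33 ribosome biogenesis genes 29 were above 0 and 14 higher without overlap (median 0.32). Nhp2, of the H/ACA particles that modify ribosomal RNA, stood at 31.2 ± 6.28 and 61.3 ± 11.3 CPM (0.97 ± 0.220), and Fbl, the methyltransferase of the C/D particles, at 41.7 ± 3.48 and 63.1 ± 7.64 CPM (0.60 ± 0.174). The 78 mitochondrial ribosomal protein genes, which serve the separate ribosome of that organelle, had a median of 0.31, with 72 above 0 and 33 higher without overlap. Beside this count and the 14 biogenesis genes stand 10.3% of all genes tested and 41 of the 94 short coding genes (median 0.28). Transcripts were longer in the TOP start (median 1937.5 bases), biogenesis (2528) and mitochondrial (1678) lists than in those short coding genes (783). With the offset for length and GC these lists had medians of 0.27, 0.33 and 0.28, and the short coding genes 0.135. Without that offset, the list medians given so far lay above that of all genes and below that of the members, except for the 4 ribosomal protein genes outside the rule.

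The remaining lists had medians between -0.17 and 0.18. The 14 genes of RNA polymerase I, which makes the large ribosomal RNA precursor, had a median of -0.03, with Polr1h at 0.76 ± 0.279 and Polr1e at 0.80 ± 0.404. The 15 chaperones and importers of ribosomal proteins had 0.13, with Tnpo1 at 0.45 ± 0.214 and Bccip at 0.30 ± 0.176. The 15 TOP and mTOR regulators had -0.05: Eif4ebp1, the translation repressor 4E-BP1, stood at 58.1 ± 8.28 and 92.2 ± 7.66 CPM (0.67 ± 0.169), and Rptor, the scaffold of mTORC1, at 57.2 ± 7.55 and 34.4 ± 7.49 CPM (-0.73 ± 0.212). Both had no overlap between genotypes, in opposite directions. The 10 transcription factors of ribosomal protein genes had -0.17, with Myc at 0.45 ± 0.212 and Tbpl1 at -0.28 ± 0.180, and no gene of that list separated the genotypes. The 8 genes of the p53 response to ribosome stress had 0.18, with Sesn2 at 0.78 ± 0.255 and Mdm4 at -0.49 ± 0.202.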

How the data were processed

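The authors made SMART-seq2 and Nextera XT libraries, which have no molecular identifiers and do not mark strand, from sorted cells of 3 biological replicates per genotype. They aligned reads with STAR 2.7.8a and estimated gene counts with RSEM 1.3.0 on GENCODE vM27; the methods give GRCm39, while the submitters' processing notes name GRCm38. The deposited values are expected counts as whole numbers, without normalization, and totalled 26037324 to 44779020 per library. Genotype and replicate were taken from the labels.

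Genes that reached 10 counts in 2 or more libraries were normalized by TMM and tested with edgeR 4.0.16 (quasi-likelihood F test, R 4.3.3), with Benjamini-Hochberg adjustment over 16296 genes; DESeq2 1.42.0 (the methods name version 1.18) and voom in limma 3.58.1 were alternatives. SE is the absolute log2 fold change divided by the root of its F statistic. The steps were tested on simulated data. CPM are TMM-normalized. Lengths, GC and overlaps come from GENCODE vM39 on GRCm39, promoters from RefSeq on GRCm38.p6, which held windows for 60 of 80 members. Paralog shares used a two-sided exact permutation test.

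Named genes are those called, the paralogs with their parents, the 8 highest and 4 lowest members by log2 fold change, the 5 highest by CPM per kb, the 3 with the largest spread, 11 members known for other roles, and up to 2 genes per translation list by p (1 of these is not reported here). The members and lists were chosen with earlier results of these data known. Same-numbered libraries deviated together only weakly (correlations 0.051, 0.045 and 0.032) and the labels name no litters, so numbers were not taken as pairs.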

Additional observations from a re-analysis of the deposited data

How the results depend on the processing

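The members' median stayed above 0 under every alternative run, and with all 6 libraries 50 (length and GC offset) to 67 of 80 genes had no overlap. The number called did not hold: 27 by DESeq2, 13 with no filter on low counts, 7 with at least 10 counts in every library, and 0 with library size only, the replicate block, the length and GC offset, the offset with the block, and each of the 6 fits without 1 library (0 to 0). Over all genes the same settings called 767, 296 and 113, and under the block, the offset and both 5, 7 and 6, against 12; the cause was not tested. The replicate block left 65 members with an unadjusted p under 0.05 and a median of 0.50. Each library correlated best with its own number, which is a hint from the data. The methods describe matings that gave both genotypes in the same litter, but the labels do not say which libraries share a litter. The count of 61 ranged from 32 to 61 without 1 library. With library size only, the medians of all, large and small subunit members were 0.34, 0.34 and 0.36. Other translation genes were called 9 times by DESeq2 and 1 time with no filter, and 1 paralog, Rpl36al, was called by DESeq2. The summed ratio of 1.27 became 1.37 without Rn18s and mitochondrial genes, 1.40 on protein-coding genes and 1.40 in TMM-normalized CPM, and TOP-like starts fell to 13 at the exact base.

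Rps24 turned to -0.13 with library size only, -0.038 and -0.033 with the offset without and with the block, and ranged from -0.028 (without replicate 3 of Wt1KOΔEC) to 0.064 without 1 library, with -6.75e-04 without replicate 2 of ControlΔEC. Leaving out 1 library moved 17 members by over 1.5 times, all with a log2 fold change of 0.42 or less, Rpsa from 0.11 to 0.42 and Rpl7l1 from 0.11 to 0.47 among them. Rpl35 turned to -0.019 with library size only, and Rps3a1 ranged from -0.087 (without replicate 2 of ControlΔEC) to 0.47 without 1 library. With 3 libraries per genotype and no molecular identifiers, the spread rests on few samples, and amplification error is not in the counts.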
